A study of Mus musculus with 11 samples.

Results

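Pre-HSCs, the cells of the arterial clusters that mature into hematopoietic stem cells, were set against the populations on either side of them, hemogenic endothelium (HE) and fetal liver HSCs (FL HSCs). The comparison used the 3 pre-HSC libraries and the 4 libraries of HE and FL HSCs, 2 of each, out of 11 RNA-seq libraries in the series. Its members were the genes whose 3 pre-HSC values all lay above, or all lay below, those 4 others. There were 3493 such genes among 14708 tested, 1657 above and 1836 below. Levels are FPKM, fragments scaled by transcript length and by the mapped fragments of the library.

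Pre-HSCs were CD31+ CD144+ ESAM+ Kit+ cells carrying Ly6a:GFP, a reporter transgene, from the major arteries. The labels give embryonic day E10.5 for them and the sort description gives E11.5. HE cells were CD31+ Runx1:GFP+ Kit low or negative CD45- CD41- cells of the same arteries at E10.5. FL HSCs were lineage-negative Sca-1+ Kit+ CD150+ CD48- cells at E14.5. Arterial endothelium without the Runx1 reporter (Endo, E10.5) and bone marrow HSCs of mice 6 to 8 weeks old (BM HSCs), with 2 libraries each, shared the fit but not the comparison. Tissue of several embryos was pooled for pre-HSCs, whose mothers had been superovulated with gonadotropins, and the labels give the strain B6129SF1 for every library. By the methods, the reporter and the cross differed between the populations, so a difference of genetic background cannot be told apart from a difference of stage. The pre-HSC gate named no marker of mature blood cells to exclude, whereas the HE gate excluded CD45 and the FL HSC gate excluded lineage markers.

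Blood stem cells first arise from endothelium. HE cells in the floor of the large embryonic arteries turn on the transcription factor RUNX1, round up into clusters that hang in the blood stream, and then move to the fetal liver, where they divide. Inflammatory cytokines, blood flow, Notch and BMP signals all act on these cells, and macrophages of the embryo lie close to the clusters.

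The sort markers placed pre-HSCs between HE and FL HSCs for most blood genes, though Ly6a overlapped FL HSCs, and with HE for endothelial genes. The endothelial gene Cdh5 (VE-cadherin) was at 454, 489 and 429.5 FPKM in pre-HSCs, against 292 and 301 FPKM in HE and 11.2 and 4.78 FPKM in FL HSCs. Kit, the stem cell factor receptor, was at 34.2, 39.2 and 33.2 FPKM in pre-HSCs, against 8.79 and 10.8 FPKM in HE and 104 and 130.0 FPKM in FL HSCs. Runx1 was at 12.6, 13.1 and 16.1 FPKM in pre-HSCs, against 3.74 and 3.13 FPKM in HE and 41.7 and 45.3 FPKM in FL HSCs. Ly6a, whose regulatory sequence drives the sort reporter, was at 6.83, 7.09 and 3.57 FPKM in pre-HSCs, against 0.0485 and 0.484 FPKM in HE and 3.9 and 9.99 FPKM in FL HSCs. All 3 pre-HSC libraries thus lay above HE and below FL HSCs for Kit and Runx1, and above both for Cdh5. Slamf1, which encodes CD150, was near 0 in pre-HSCs at 0.36, 0.636 and 0.959 FPKM, against 0 and 0.205 FPKM in HE and 13 and 16.8 FPKM in FL HSCs. Cd48 was highest in FL HSCs at 35.9 and 16.6 FPKM, although their gate excluded CD48. It was at 2.95, 2.45 and 6.09 FPKM in pre-HSCs and at 0 and 0 FPKM in HE.

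Macrophage genes varied widely among the pre-HSC libraries. The summed level of the 20 tested macrophage genes was 1152, 419.0 and 2389 FPKM in pre-HSC replicates 1, 2 and 3, against 14.8 and 20.9 FPKM in HE and 689.9 and 181.9 FPKM in FL HSCs. The order replicate 3, then 1, then 2 was seen in 19 of these 20 genes, and in 22.0% of all tested genes. Csf1r, the receptor for the macrophage growth factor, was at 85.8, 26.3 and 164 FPKM in pre-HSCs, against 1.46 and 1.04 FPKM in HE and 33.2 and 4.79 FPKM in FL HSCs. C1qa, a complement subunit made by macrophages, was at 104, 37.5 and 245 FPKM in pre-HSCs, against 0.601 and 0.735 FPKM in HE and 69.9 and 10.6 FPKM in FL HSCs. Markers of other cells were present at mixed levels. Of the granulocyte genes, Elane was at most 0.222 FPKM in pre-HSCs and 0.0319 FPKM in HE, against 48.3 and 44.4 FPKM in FL HSCs. Mpo was at 15.9, 22.6 and 21.7 FPKM in pre-HSCs, against 2.32 and 1.86 FPKM in HE and 189.9 and 160.0 FPKM in FL HSCs. The epithelial gene Krt8 was at 16.1, 8.03 and 10.2 FPKM in pre-HSCs, against 233 and 112 FPKM in HE and 0.466 and 0.149 FPKM in FL HSCs. The neural gene Sox2 was at most 1.12 FPKM and the erythroid gene Alas2 at most 2.43 FPKM in pre-HSCs, while the embryonic globin Hbb-bh1 was between 131 and 192 FPKM. The mural gene Acta2 was at 87.2, 50.2 and 60.8 FPKM in pre-HSCs, against 303 and 284 FPKM in HE and 0.0717 and 0 FPKM in FL HSCs. FPKM sums ran from 569851 to 610013 in pre-HSCs, against 628205 to 693418 in HE and 648708 to 751594 in FL HSCs. Single libraries of some genes are listed at 0 while every other library is at 20 FPKM or more, which held for 5 genes, among them Prpf8 in pre-HSC replicate 3 and Ddb1 in pre-HSC replicate 1. Of the genes set apart above, 81 had both HE or both FL HSC libraries at 0, and such a 0 can be a failed estimate. In these bulk samples fewer cells of a type and less RNA per cell cannot be told apart.

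To find how many genes stood out on both sides, each gene was fitted with limma on log2(FPKM + 1), and every fold change here is on that scale, which understates the change of low genes. A gene is called where its adjusted p is under 0.01 over the 5 populations and under 0.05 in the contrast, and its change is at least 2-fold. Against the mean of HE and FL HSCs, 1196 genes were called higher in pre-HSCs (8.13% of tested genes) and 408 lower (2.77%), so that 74.6% of the called genes were higher. That share was 84.8% with FPKM scaled to equal totals and 63.3% with quantile normalization. Scaling moved the median of all tested genes to 0.17 (log2), against 0.00 as deposited and -0.09 with quantile normalization. Called on both sides means called in the same direction over HE and over FL HSCs. By this rule 307 genes were higher (2.09% of tested genes) and 83 lower (0.564%). Both sides share the pre-HSC libraries, so they are not independent of each other. The share set apart was 11.3% of tested genes above and 12.5% below. Of the genes set apart above, 687 were called, and of those set apart below, 247. Of the 307 higher genes 295 were set apart, and so were all 83 lower ones, though set apart and called use the same values. Without HE replicate 1 the counts on both sides were 181 higher and 49 lower. Without pre-HSC replicate 3, the library highest in macrophage genes, 273 were higher and 242 of them were among the 307. The rule has no margin: Haus2 was just inside it at 12.0059, 11.1213 and 10.5714 FPKM in pre-HSCs, against 6.65754 and 8.74216 FPKM in HE and 10.5699 and 10.412 FPKM in FL HSCs, and Cyb5b just outside at 48.2813, 48.6733 and 45.5296 FPKM in pre-HSCs, against 39.5689 and 45.545 FPKM in HE and 33.5932 and 39.4113 FPKM in FL HSCs. Below, Qdpr was just inside at 61.8027, 69.8372 and 69.5821 FPKM in pre-HSCs, against 72.9987 and 69.8573 FPKM in HE and 114.205 and 88.9567 FPKM in FL HSCs, and Tssc1 just outside at 14.0302, 13.5687 and 17.2026 FPKM in pre-HSCs, against 17.2023 and 18.6743 FPKM in HE and 33.672 and 21.982 FPKM in FL HSCs.

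**Figure D1:**
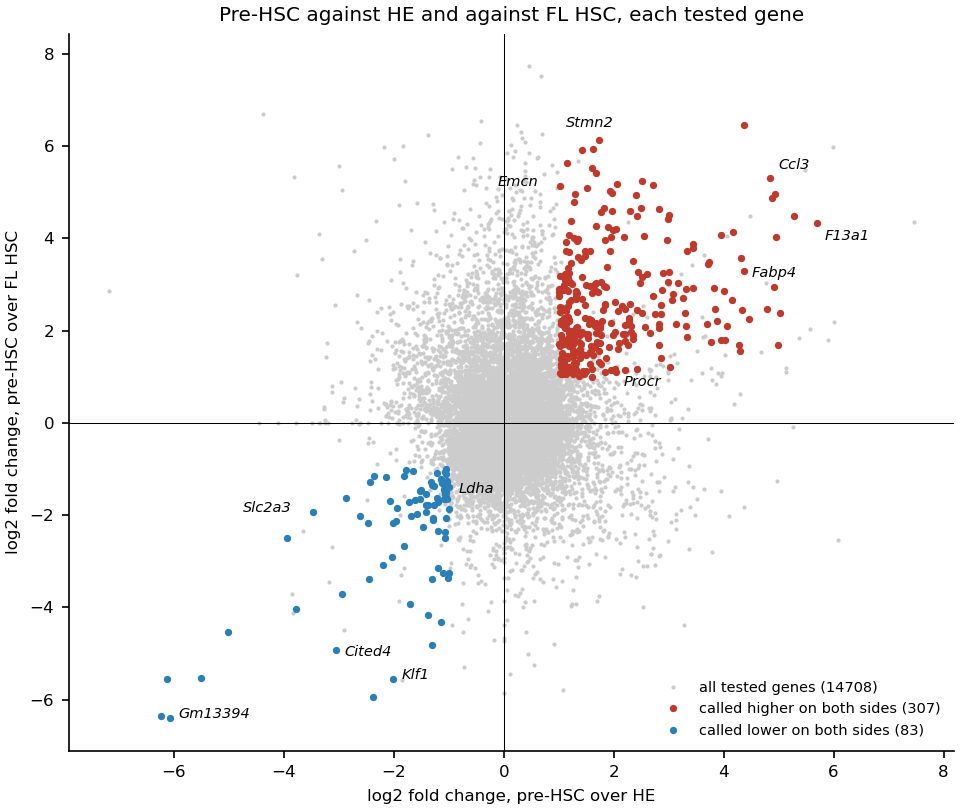
Each point is a tested gene, with the log2 fold change of pre-HSC over HE on the horizontal axis and of pre-HSC over FL HSC on the vertical axis. The 307 genes called higher on both sides (red) lie at the upper right and the 83 called lower (blue) at the lower left. Both axes share the 3 pre-HSC libraries.

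The 307 higher genes fell into groups by their spread within the pre-HSC libraries. That spread is part of the error in the fit, so the groups are not independent of the calls. In 85 of them (27.7%, against 4.13% of all tested genes) pre-HSC replicate 3 was at least 2-fold above replicate 2 on the (FPKM + 1) scale, as for the macrophage genes. In 172 (56.0%, against 81.8%) the 2 libraries were within 1.41-fold of each other. In 30 the ratio lay between those limits, and in 20 replicate 3 was lower by 1.41-fold or more. These limits were chosen after the values were seen. The first group is called uneven here and the second even. FL HSC replicate 1, the FL library higher in macrophage genes, exceeded FL HSC replicate 2 in 63 of the 85 uneven genes (74.1%) and in 56 of the 172 even genes (32.6%), against 47.4% of all tested genes. The part of macrophage RNA in these results was not tested.

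Inflammatory cytokines and chemokines were set apart above in 15 of 21 tested members (16 with FPKM scaled to equal totals and 11 with quantile normalization). Of these members 13 were called higher on both sides and none lower. Of all tested genes 11.3% were set apart above and 2.09% called higher on both sides. The list held 27 genes, and those not tested failed the expression filter. That filter counts the pre-HSC libraries, and members such as Cxcl2 and Ccl7 passed it through them alone. This can raise the list's shares and medians against those of all tested genes. The list's median log2 fold change was 1.76 over HE and 2.46 over FL HSCs, against 0.09 and -0.11 for all tested genes. All 13 were uneven and all 13 followed the order replicate 3, 1, 2. Ccl3 (chr11:83461346-83462857, mm9), a chemokine that draws monocytes, was at 63.7, 18.1 and 96.3 FPKM in pre-HSCs, against 0.267 and 1.35 FPKM in HE and 0 and 0.532 FPKM in FL HSCs. Its log2 fold change was 4.84 over HE (SE 0.68, adjusted p = 0.00127) and 5.32 over FL HSCs (SE 0.68, adjusted p = 1.46e-04). Cxcl2 (chr5:91332897-91334935, mm9), which draws neutrophils, was at 33, 12.5 and 63.7 FPKM in pre-HSCs, against 0.0337 and 0 FPKM in HE and 0 and 0 FPKM in FL HSCs. Both FL HSC libraries are listed at 0 for Cxcl2, so no fold is given there (adjusted p = 3.24e-05), and Ccl12 is also listed at 0 in both. Il1b, which encodes interleukin 1 beta, was at 13.7, 3.49 and 34.5 FPKM in pre-HSCs, against 0 and 0 FPKM in HE and 0.417 and 0 FPKM in FL HSCs. Tnf was at 13.1, 3.85 and 22.5 FPKM in pre-HSCs, against 0.0815 and 0.378 FPKM in HE and 0.885 and 0.695 FPKM in FL HSCs. Every pre-HSC library exceeded all 4 others for these genes. Ccl2, Ccl4, Ccl7, Ccl9, Cxcl1, Cxcl10, Il1a, Osm and Ptgs2 completed the 13.

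Macrophage genes were higher in pre-HSCs than in the mean of both neighbors in 19 of 20 tested members. In FL HSC replicate 1, 16 of the 20 tested macrophage genes were higher than in pre-HSC replicate 2, as for C1qa. The same held for 4 of the 21 tested cytokine genes. The share over all tested genes was not counted, so neither count can be read against it. Of the 20 genes, 8 were called on both sides (Csf1r, Mrc1, Fcgr1, Fcgr3, Cd14, Cx3cr1, Trem2 and Fcer1g), against 2.09% of all tested genes. Set apart above were 4 (20%, against 11.3% of all tested genes). Mrc1, the mannose receptor of tissue macrophages, was set apart at 68.8, 22.9 and 104 FPKM in pre-HSCs, against 0.618 and 1.05 FPKM in HE and 4.16 and 1.29 FPKM in FL HSCs. F13a1, the clotting factor XIII subunit that macrophages make, was at 76.5, 20.4 and 117 FPKM in pre-HSCs, against 0.0476 and 0.203 FPKM in HE and 1.44 and 2.4 FPKM in FL HSCs. Fcrls, an Fc receptor-like gene of mouse microglia, was at 58.4, 18.3 and 125 FPKM in pre-HSCs, against 0.155 and 0.577 FPKM in HE and 2.76 and 0.437 FPKM in FL HSCs. C3ar1, the receptor for the complement fragment C3a, was at 19, 5.21 and 31.7 FPKM in pre-HSCs, against 0.184 and 0.241 FPKM in HE and 0.969 and 0.0885 FPKM in FL HSCs. Replicate 2 was the lowest pre-HSC library for each of these, and still lay above every HE and FL HSC library. The 12 genes called on both sides but not set apart were all uneven: Fcer1g, Nlrp3, Ifi27l2a, Ly86, Ctsb, Cd86, Trem2, Csf1r, Fcgr1, Clec4a2, Msr1 and Cybb. They were picked out here after their values were seen, and missing the rule despite a 2-fold step itself favors a wide spread between libraries.

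**Figure D2:**
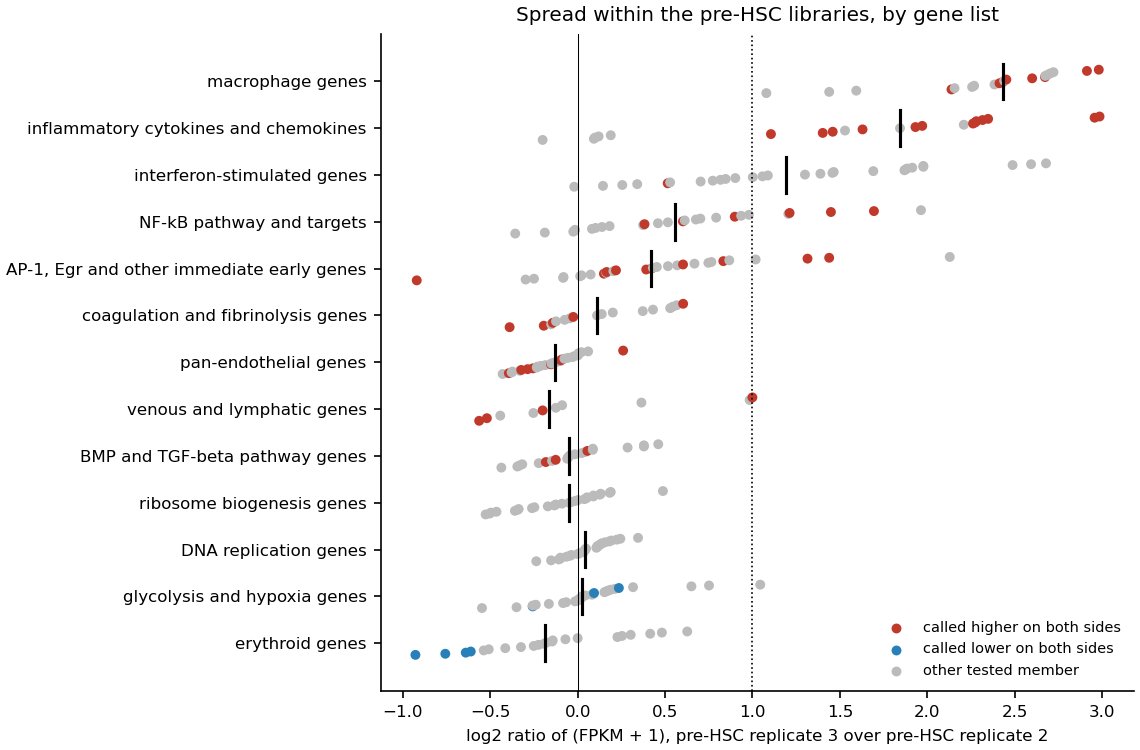
For the tested members of 13 gene lists (rows), the horizontal axis gives the log2 ratio of (FPKM + 1) of pre-HSC replicate 3 over replicate 2. Bars are list medians and the dotted line is a 2-fold ratio. The median was 2.44 for macrophage genes and 1.84 for cytokines, 0.56 for NF-kB genes, 0.42 for immediate early genes and -0.13 for pan-endothelial genes.

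NF-kB is the transcription factor that tumor necrosis factor and Toll-like receptors switch on, and several of its targets are its own brakes. Of 26 tested members of the NF-kB list, 9 were set apart above, 10 were called higher and 6 were called on both sides: Nfkbia, Nfkbiz, Tnfaip3, Icam1, Zc3h12a and Map3k8. The shares of all tested genes were 11.3%, 8.13% and 2.09%, in the same order. NF-kB genes called higher fell to 6 without pre-HSC replicate 3 and also to 6 without Endo replicate 1. Nfkbiz, an inhibitor-like nuclear partner of NF-kB, was at 22.1, 13.2 and 31.8 FPKM in pre-HSCs, against 1.74 and 2.21 FPKM in HE and 0.968 and 1.71 FPKM in FL HSCs, with log2 fold changes of 2.89 over HE (SE 0.45, adjusted p = 0.00205) and 3.26 over FL HSCs (SE 0.45, adjusted p = 2.46e-04). Tnfaip3, the ubiquitin-editing enzyme A20 that ends the signal, was at 11.7, 7.44 and 22 FPKM in pre-HSCs, against 1.24 and 1.48 FPKM in HE and 1.6 and 1.58 FPKM in FL HSCs. Icam1, a leukocyte adhesion protein, was even at 54, 51.6 and 67.6 FPKM in pre-HSCs, against 27.1 and 21.7 FPKM in HE and 14.7 and 13.4 FPKM in FL HSCs. Nfkbiz and Tnfaip3 were uneven, so the list holds both patterns.

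Immediate early genes, which cells turn on within minutes of a stimulus, were set apart above in 19 of 29 tested members, with 20 called higher, 10 on both sides and none lower. Of all tested genes 11.3% were set apart above, 8.13% called higher and 2.09% higher on both sides. The median log2 fold change of the immediate early list was 0.90 over HE and 3.02 over FL HSCs. Klf4, a zinc finger factor that blood flow induces in endothelium, was at 41, 42.4 and 47.2 FPKM in pre-HSCs, against 5.68 and 8.4 FPKM in HE and 0.764 and 0.731 FPKM in FL HSCs, with log2 fold changes of 2.49 over HE (SE 0.56, adjusted p = 0.0106) and 4.67 over FL HSCs (SE 0.56, adjusted p = 9.42e-05). Nr4a1, an orphan nuclear receptor, was at 70.6, 65.5 and 88 FPKM in pre-HSCs, against 20.02 and 15 FPKM in HE and 2.69 and 3.49 FPKM in FL HSCs. Btg2, which restrains cell division, was at 49.3, 43.9 and 57.9 FPKM in pre-HSCs, against 13.9 and 14.1 FPKM in HE and 4.9 and 5.3 FPKM in FL HSCs. These 3 were even. Zfp36, which encodes a protein that destabilizes cytokine mRNAs, was uneven at 156, 99 and 248 FPKM in pre-HSCs, against 12.2 and 14.9 FPKM in HE and 9.23 and 11.4 FPKM in FL HSCs. BM HSC replicate 1 reached 143 FPKM for Zfp36, against 27.7 FPKM in BM HSC replicate 2. Fos was at 140.2, 96.5 and 177 FPKM in pre-HSCs, against 29.9 and 63.6 FPKM in HE and 0.213 and 0.741 FPKM in FL HSCs, and its step over HE did not pass the test, at a log2 fold change of 1.59 over HE (SE 0.78, adjusted p = 0.151). Tissue handling can induce these genes, and its part in them was not tested. By the methods, HE and pre-HSC tissue was digested with collagenase, and fetal liver was dissociated mechanically. In the steps over FL HSCs, of these genes and of all others here, handling and stage thus cannot be told apart.

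Signals from cytokine receptors pass through Jak and Stat proteins, and Socs3 is the feedback inhibitor of this pathway. Socs3 was the only tested member of 30 in the cytokine receptor and Jak-Stat list called higher on both sides as deposited, and there were 3 with FPKM scaled to equal totals. In that list 8 were set apart above, 7 called higher and 1, Socs2, called lower. Of all tested genes 11.3% were set apart above, 8.13% called higher and 2.77% lower. Socs3 was at 43.9, 54.6 and 56.2 FPKM in pre-HSCs, against 5.29 and 5.9 FPKM in HE and 1.13 and 1.83 FPKM in FL HSCs, with log2 fold changes of 2.99 over HE (SE 0.36, adjusted p = 5.93e-04) and 4.41 over FL HSCs (SE 0.36, adjusted p = 8.04e-06). Socs3 was even across the pre-HSC libraries. Lifr, a receptor for leukemia inhibitory factor, was set apart at 12.1, 12.3 and 9.82 FPKM in pre-HSCs, against 8.04 and 8.27 FPKM in HE and 0.0513 and 0.136 FPKM in FL HSCs. Its log2 fold change was 0.43 over HE (SE 0.18, adjusted p = 0.101), which did not pass the test, and 3.50 over FL HSCs (SE 0.18, adjusted p = 3.68e-07). Il1r1, a receptor for interleukin 1, was low but set apart at 2.77, 2.47 and 2.54 FPKM in pre-HSCs, against 1 and 0.723 FPKM in HE and 0.43 and 0.286 FPKM in FL HSCs. Of 4 further genes named by rule, Hif1a was set apart above without being called (though it was called without FL HSC replicate 2), Maz was set apart below without being called, and Neurl3 and Sp3 overlapped FL HSCs. Neurl3 was at 24.4, 32.9 and 36.7 FPKM in pre-HSCs, against 4.3 and 3.99 FPKM in HE and 34.6 and 38 FPKM in FL HSCs.

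Promoters of the genes called on both sides were read for motifs near their start. RefSeq promoters of 300 bases (250 before and 50 after the start, build GRCm38.p6) matched 196 of the 307 higher genes and 9657 of the tested genes by symbol. The 4 printed are a pair of uneven genes (Cxcl2 and C3ar1) and a pair of even ones (Socs3 and Procr), each chosen after its motif was seen. Each is written 5′ to 3′ along the gene, with the motif in capitals: an NF-kB motif in Cxcl2 (overlapping matches on the 2 strands), the AP-1 motif TGANTCA in C3ar1 and Procr, and the STAT motif TTCNNNGAA in Socs3.
Cxcl2 (chr5:90903649-90903948, + strand): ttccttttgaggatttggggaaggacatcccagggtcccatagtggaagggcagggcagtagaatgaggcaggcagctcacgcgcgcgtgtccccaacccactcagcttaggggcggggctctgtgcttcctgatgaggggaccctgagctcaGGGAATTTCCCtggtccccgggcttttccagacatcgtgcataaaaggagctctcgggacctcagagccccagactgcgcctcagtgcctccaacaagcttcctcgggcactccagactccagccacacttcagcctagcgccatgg
C3ar1 (chr6:122856108-122856407, - strand): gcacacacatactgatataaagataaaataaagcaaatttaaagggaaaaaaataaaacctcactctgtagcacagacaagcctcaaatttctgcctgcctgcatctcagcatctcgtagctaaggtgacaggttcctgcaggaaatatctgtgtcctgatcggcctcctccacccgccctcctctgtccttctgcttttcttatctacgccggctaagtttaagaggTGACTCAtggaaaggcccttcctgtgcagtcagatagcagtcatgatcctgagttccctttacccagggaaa
Socs3 (chr11:117969317-117969616, - strand): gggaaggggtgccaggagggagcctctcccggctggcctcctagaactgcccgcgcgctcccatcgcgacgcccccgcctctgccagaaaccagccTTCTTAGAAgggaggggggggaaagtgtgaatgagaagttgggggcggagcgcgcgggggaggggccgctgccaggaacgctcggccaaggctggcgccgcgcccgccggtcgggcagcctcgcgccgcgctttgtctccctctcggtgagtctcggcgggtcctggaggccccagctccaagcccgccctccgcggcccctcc
Procr (chr2:155750967-155751266, + strand): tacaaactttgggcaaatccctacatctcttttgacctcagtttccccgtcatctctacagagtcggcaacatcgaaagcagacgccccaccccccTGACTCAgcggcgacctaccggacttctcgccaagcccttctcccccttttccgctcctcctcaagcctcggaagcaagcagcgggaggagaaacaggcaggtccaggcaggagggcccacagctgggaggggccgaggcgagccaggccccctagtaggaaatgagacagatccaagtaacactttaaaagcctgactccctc
The AP-1 motif was in 26 of the 196 promoters (13.3%), against 454 of all 9657 (4.7%), on either strand. It was in 11 of 55 uneven genes (20%) and 13 of 109 even ones (11.9%), and in 6 of the 52 matched promoters of genes lower on both sides (11.5%). The NF-kB motif was in 19 (9.69%), against 5.27% of all, and STAT in 16 (8.16%), against 6.86%. Of the other motifs searched, CRE (TGACGTCA) was in 2, the CArG box in 2, CACCC (CCACACCC) in 8 and a heat shock element (GAANNTTCNNGAA) in none of the 196, against 3.21%, 1.33%, 3.7% and 0.373% of all. Matches of different motifs overlapped in 1 of the 196. A match is a run of letters and not a shown binding site.

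Several receptors and ligands that act on the vessel wall were higher on both sides and even across the pre-HSC libraries. Adrb1, the beta-1 adrenergic receptor, was at 22.1, 18.9 and 19.5 FPKM in pre-HSCs, against 1.83 and 1.61 FPKM in HE and 0.656 and 0.113 FPKM in FL HSCs, with log2 fold changes of 2.96 over HE (SE 0.24, adjusted p = 9.32e-05) and 3.96 over FL HSCs (SE 0.24, adjusted p = 1.06e-06). Ednrb, an endothelin receptor, was at 50.6, 47.5 and 55.2 FPKM in pre-HSCs, against 6.66 and 7.22 FPKM in HE and 0.652 and 0.285 FPKM in FL HSCs, and in Endo it was at 5.81 and 7.81 FPKM. Edn1, which encodes its ligand endothelin 1, was at 35.1, 27.6 and 33.1 FPKM in pre-HSCs, against 9.19 and 5.93 FPKM in HE and 0 and 0.0605 FPKM in FL HSCs. Receptor and ligand thus both stood apart. S1pr1, the sphingosine 1-phosphate receptor, was at 65.7, 71.6 and 66.9 FPKM in pre-HSCs, against 18 and 27.4 FPKM in HE and 4.43 and 4.05 FPKM in FL HSCs. Calcrl, which forms the adrenomedullin receptor, was at 169.8, 168 and 141 FPKM in pre-HSCs, against 26.9 and 39.5 FPKM in HE and 38.2 and 62.2 FPKM in FL HSCs. Gpr126, an adhesion G protein-coupled receptor, was at 16.9, 15.8 and 15.6 FPKM in pre-HSCs, against 1.8 and 1.99 FPKM in HE and 0.0386 and 0.0236 FPKM in FL HSCs. Every one of these was called on both sides, and no pre-HSC library overlapped another population. Ahr, the aryl hydrocarbon receptor, was at 17, 17.6 and 13.3 FPKM in pre-HSCs, against 2.71 and 3.3 FPKM in HE and 1.46 and 3.04 FPKM in FL HSCs. Igf1, insulin-like growth factor 1, was at 47.2, 52.9 and 49.7 FPKM in pre-HSCs, against 12.2 and 16.5 FPKM in HE and 15.6 and 7.51 FPKM in FL HSCs.

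Further genes called higher on both sides take up lipids or hyaluronan, and they are described singly, as no list of such genes was used. Fabp4, a fatty acid carrier of capillary endothelium and macrophages, was at 65, 68.2 and 72.3 FPKM in pre-HSCs, against 3.29 and 1.65 FPKM in HE and 9.62 and 3.66 FPKM in FL HSCs, with log2 fold changes of 4.36 over HE (SE 0.36, adjusted p = 1.01e-04) and 3.30 over FL HSCs (SE 0.36, adjusted p = 5.29e-05). Cd36, a fatty acid and thrombospondin receptor, was at 17.8, 17.1 and 19.9 FPKM in pre-HSCs, against 1.21 and 1.57 FPKM in HE and 1.61 and 0.524 FPKM in FL HSCs. Both were even across the pre-HSC libraries. Lyve1, a hyaluronan receptor of lymphatic vessels and some macrophages, was at 39.9, 27.2 and 55.4 FPKM in pre-HSCs, against 2.31 and 3.16 FPKM in HE and 3.1 and 0.824 FPKM in FL HSCs, with replicate 3 the highest. Stab2, the hyaluronan scavenger receptor of sinusoids, was at 39.4, 47.7 and 31.9 FPKM in pre-HSCs, against 5.02 and 8 FPKM in HE and 7 and 1.17 FPKM in FL HSCs, and replicate 2 was its highest library.

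Endothelial genes as a group were far above FL HSCs and close to HE. Of 30 pan-endothelial genes, 17 were set apart above, 23 were called higher and 8 were called on both sides (Tek, Emcn, Calcrl, Vwf, Ptprb, S1pr1, Clec14a and Cd93), with none lower. The shares of all tested genes were 11.3%, 8.13% and 2.09%, in the same order. The median log2 fold change of the pan-endothelial list was 0.34 over HE and 3.71 over FL HSCs. Emcn, which encodes the sialomucin endomucin, was at 433, 476 and 428 FPKM in pre-HSCs, against 223 and 216 FPKM in HE and 9.33 and 14.6 FPKM in FL HSCs, with log2 fold changes of 1.02 over HE (SE 0.16, adjusted p = 0.00248) and 5.14 over FL HSCs (SE 0.16, adjusted p = 2.42e-08). Tek, the angiopoietin receptor, was at 101, 117 and 96.1 FPKM in pre-HSCs, against 39.9 and 48.4 FPKM in HE and 9.4 and 15.5 FPKM in FL HSCs. CD31, CD144 and ESAM were required by the pre-HSC gate and not by the FL HSC gate. The HE gate required CD31 but neither CD144 (VE-cadherin) nor ESAM, so the gates also differed on that side. Of the 10 venous and lymphatic genes 7 were set apart above and 4 were called on both sides. Nr2f2, the transcription factor of vein identity, was at 50.9, 59.1 and 41 FPKM in pre-HSCs, against 15.6 and 24.7 FPKM in HE and 0.904 and 0.404 FPKM in FL HSCs. Nrp2, a receptor for semaphorins and VEGF-C, was at 87.9, 91.1 and 79.2 FPKM in pre-HSCs, against 25.6 and 38.8 FPKM in HE and 0.757 and 0.194 FPKM in FL HSCs. In the Notch and arterial list 5 of 24 were set apart above, 11 were called higher and 1 on both sides, while 1, Cxcr4, was set apart below and called lower on both sides. The median over HE was -0.12. The Notch ligand gene Dll1 was higher on both sides at 24.9, 22.2 and 17.2 FPKM in pre-HSCs, against 7.71 and 9.44 FPKM in HE and 0.132 and 0 FPKM in FL HSCs. The Notch target Hes5, which is not on that list and was picked after its values were seen, went the other way at 0.414, 0.228 and 0 FPKM in pre-HSCs, against 6.54 and 4.01 FPKM in HE and 0.982 and 2.55 FPKM in FL HSCs.

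**Figure D3:**
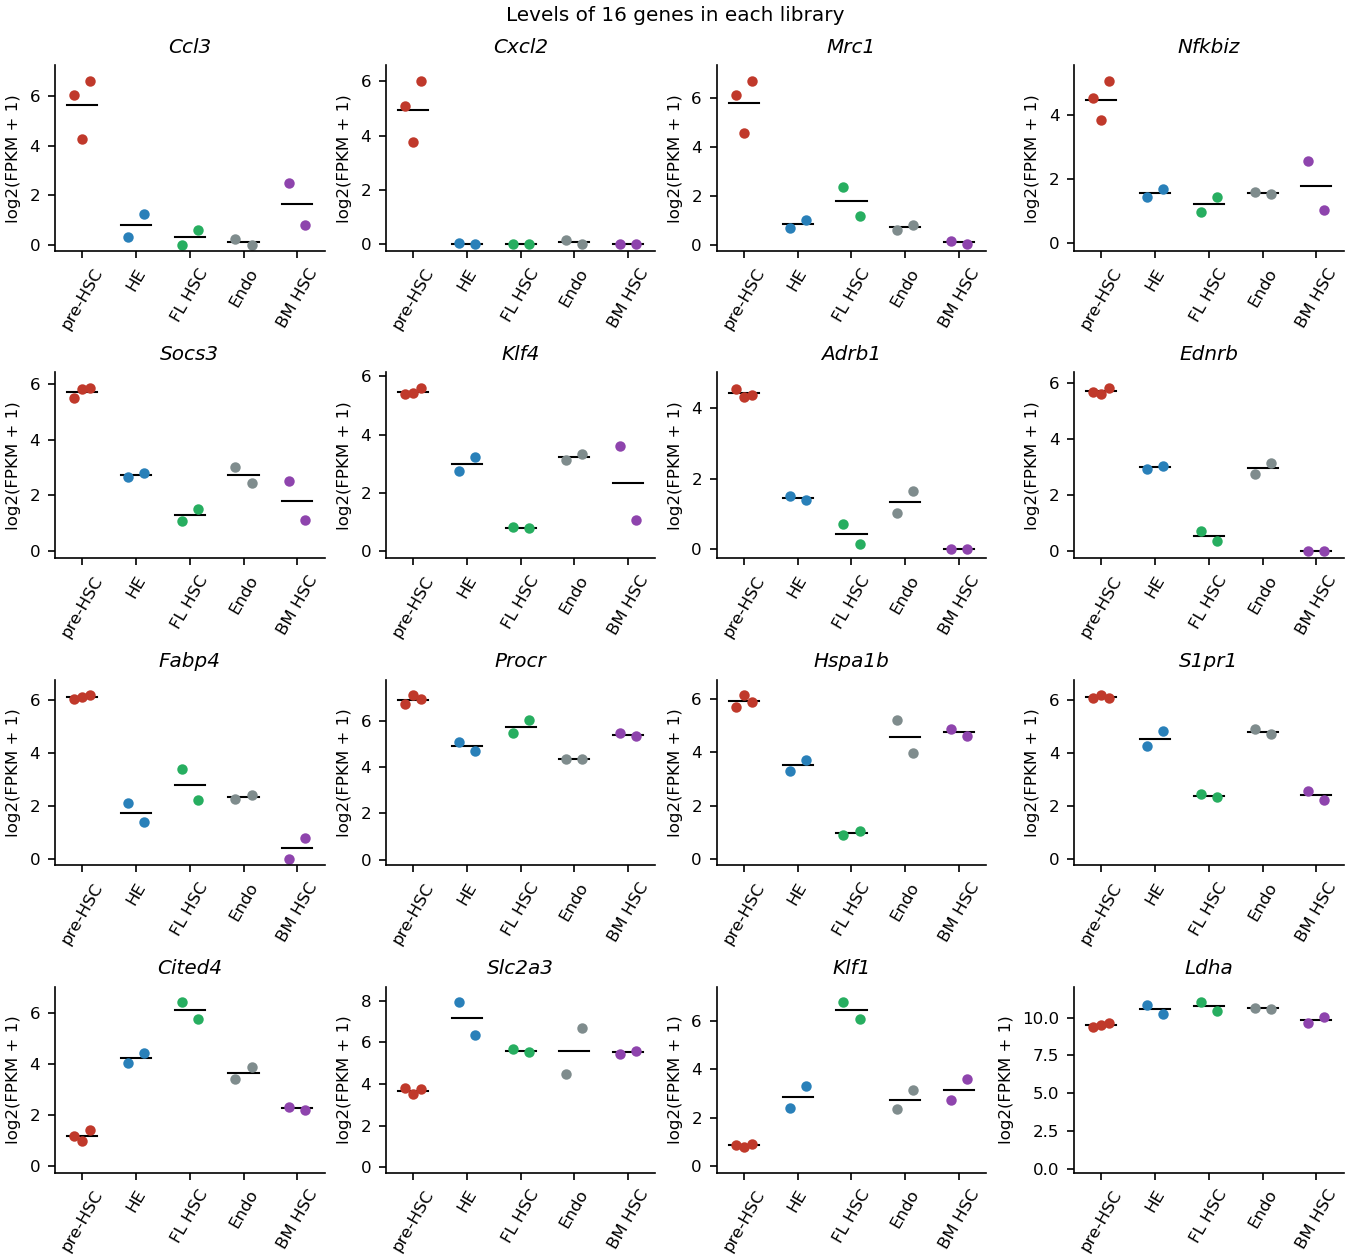
Levels of 16 genes as log2(FPKM + 1) in each library (points), with the mean of the 2 or 3 libraries as a bar, for pre-HSC, HE, FL HSC, Endo and BM HSC. Ccl3, Cxcl2, Mrc1 and Nfkbiz spread among the pre-HSC libraries, Socs3 to S1pr1 lie close together there, and Cited4, Slc2a3, Klf1 and Ldha are lowest in pre-HSCs.

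Coagulation genes were called higher against the mean of HE and FL HSCs in 9 of 17 tested members, with 8 set apart above (47.1%). Of all tested genes 8.13% were called higher, 2.09% higher on both sides, and 11.3% set apart above. Coagulation genes called on both sides were 5: Plau, Thbd, Procr, F2r and Pros1. The list's median log2 fold change was 0.71 over HE and 1.90 over FL HSCs. Thbd, thrombomodulin, which turns thrombin into an anticoagulant, was at 40.0, 42.7 and 41.9 FPKM in pre-HSCs, against 12.1 and 14.8 FPKM in HE and 4.8 and 4.04 FPKM in FL HSCs. Procr, the protein C receptor and a known HSC marker, was at 104, 138 and 120.2 FPKM in pre-HSCs, against 33.2 and 24.9 FPKM in HE and 43.1 and 64.9 FPKM in FL HSCs, and the AP-1 match in its promoter is printed above. Its log2 fold changes were 2.02 over HE (SE 0.19, adjusted p = 1.96e-04) and 1.16 over FL HSCs (SE 0.19, adjusted p = 8.49e-04). F2r, the thrombin receptor, was at 137, 153 and 116 FPKM in pre-HSCs, against 58.1 and 61.2 FPKM in HE and 25.5 and 27.4 FPKM in FL HSCs. All 3 of these were even. In the BMP and TGF-beta list 10 of 22 members were set apart above (45.5%) and 10 called higher, 3 of them on both sides. Tgfbr2, a TGF-beta receptor, was at 33.8, 35.3 and 36.7 FPKM in pre-HSCs, against 11.9 and 15.4 FPKM in HE and 7.24 and 8.08 FPKM in FL HSCs. Bmpr2, a BMP receptor, was at 12.6, 13.2 and 11.5 FPKM in pre-HSCs, against 2.89 and 6.7 FPKM in HE and 3.79 and 5.9 FPKM in FL HSCs. Bmp4 was set apart but close to HE, at 23.2, 20.6 and 21 FPKM in pre-HSCs, against 18.2 and 20.3 FPKM in HE and 0.73 and 0 FPKM in FL HSCs. Integrins and adhesion receptors were set apart above in 6 of 22 (27.3%) and called on both sides in 3. Among these 3 was Itga6, a laminin receptor, at 179, 173 and 154 FPKM in pre-HSCs, against 70.8 and 77.8 FPKM in HE and 25 and 32 FPKM in FL HSCs.

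Heat shock chaperones were split. Hspa1b, an inducible Hsp70 gene, was at 51, 69.5 and 58.3 FPKM in pre-HSCs, against 8.78 and 12.2 FPKM in HE and 0.853 and 1.06 FPKM in FL HSCs, with log2 fold changes of 2.40 over HE (SE 0.31, adjusted p = 9.06e-04) and 4.94 over FL HSCs (SE 0.31, adjusted p = 1.38e-06). Its neighbor Hspa1a was at 18.2, 23.2 and 25.2 FPKM in pre-HSCs, against 4.78 and 5.1 FPKM in HE and 0.541 and 0.308 FPKM in FL HSCs, and because the 2 genes are nearly identical the division of reads between them is uncertain. Of 19 tested members 2 were set apart above, a share of 10.5% that is close to the 11.3% of all tested genes. Below were 5 (26.3%, against 12.5%), and the median log2 fold change against the mean of both neighbors was -0.22. Hspe1, a mitochondrial chaperonin, was set apart below at 218, 232 and 244 FPKM in pre-HSCs, against 431 and 391 FPKM in HE and 605 and 428 FPKM in FL HSCs. It was not called, but was called without HE replicate 2, pre-HSC replicate 3 or FL HSC replicate 2. Cell cycle inhibitors and p53 targets were set apart above in 5 of 20 (25%, against 11.3% of all tested genes). Called on both sides were 3, against 2.09% of all tested genes: Cdkn2c, Pmaip1 and Btg1. Cdkn2c, an inhibitor of CDK4 and CDK6, was at 6.27, 3.73 and 9.19 FPKM in pre-HSCs, against 1.39 and 1.75 FPKM in HE and 2.63 and 2.11 FPKM in FL HSCs, and its call against the mean of both neighbors was lost without pre-HSC replicate 3. In 2 short RNAs the steps were among the largest, but poly(A) selection, which these libraries used, does not target such RNAs. U4, a spliceosomal RNA, was at 21.8, 15 and 69.4 FPKM in pre-HSCs, against 0 and 0 FPKM in HE and 0 and 0 FPKM in FL HSCs. Snora31 was at 32.7, 157 and 129 FPKM in pre-HSCs, against 0 and 17.5 FPKM in HE and 0 and 0 FPKM in FL HSCs.

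Among genes lower in pre-HSCs were members of the glycolysis and erythroid lists. Of 29 tested glycolysis and hypoxia genes 13 were set apart below, 9 were called lower and 3 were called on both sides, and 2 (Ddit4 and Epas1) were called higher. Of all tested genes 12.5% were set apart below, 2.77% called lower and 0.564% lower on both sides. The glycolysis count on both sides was 1 with FPKM scaled to equal totals and 2 with quantile normalization. Called lower fell to 5 with FPKM scaled to equal totals, and to 5 without HE replicate 1, pre-HSC replicate 2 or FL HSC replicate 1. Slc2a3, the glucose transporter GLUT3, was at 12.9, 10.3 and 12.4 FPKM in pre-HSCs, against 244 and 80.7 FPKM in HE and 49.8 and 45.4 FPKM in FL HSCs, with log2 fold changes of -3.46 over HE (SE 0.57, adjusted p = 0.00272) and -1.92 over FL HSCs (SE 0.57, adjusted p = 0.0188). HE replicate 1 was far above replicate 2 for it, and its call did not hold without HE replicate 1 or without any 1 of the pre-HSC libraries. Ldha, which makes lactate, was at 662, 735 and 785 FPKM in pre-HSCs, against 1825 and 1225 FPKM in HE and 2131 and 1404 FPKM in FL HSCs. Pfkl, a phosphofructokinase, was at 55.4, 65.6 and 54.7 FPKM in pre-HSCs, against 135 and 111 FPKM in HE and 188 and 148 FPKM in FL HSCs. Slc16a3, a lactate exporter, was set apart at 33.2, 38.4 and 34.1 FPKM in pre-HSCs, against 189 and 120.3 FPKM in HE and 58.5 and 53.2 FPKM in FL HSCs, and its step to FL HSCs did not pass the test, at a log2 fold change of -0.65 over FL HSCs (SE 0.26, adjusted p = 0.0577).

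Erythroid genes were set apart below in 11 of 22 tested members, with 15 called lower, 4 of these on both sides, such as Kel and Icam4, and 1 called higher, the embryonic globin Hbb-bh1. Of all tested genes 12.5% were set apart below, 2.77% called lower and 0.564% lower on both sides. Klf1, the transcription factor of red cell genes, was at 0.837, 0.757 and 0.873 FPKM in pre-HSCs, against 4.34 and 9.06 FPKM in HE and 107 and 66.6 FPKM in FL HSCs. Gata1, which acts with it, was at 0.871, 1.05 and 0.799 FPKM in pre-HSCs, against 2.89 and 4.76 FPKM in HE and 64.7 and 42.6 FPKM in FL HSCs. Both were near 1 FPKM or below in every pre-HSC library. Hbb-bh1 was called higher only against the mean of both neighbors and lay below HE, at 131, 192 and 132 FPKM in pre-HSCs, against 2675 and 3625 FPKM in HE and 1.09 and 0 FPKM in FL HSCs. The summed level of the erythroid list was 907, 1253 and 1048 FPKM in pre-HSCs, against 9345 and 12140 FPKM in HE and 839.6 and 659.1 FPKM in FL HSCs. The part of red cell RNA in the HE values was not tested. Klf1 and Gata1 were also the only 2 of 27 tested hematopoietic transcription factors called on both sides, and no member of that list was called higher.

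Genes of growth were set apart below more often than they were called. This held for all tested genes too, of which 12.5% were set apart below and 2.77% called lower. Of 27 ribosome biogenesis genes 17 were set apart below, 4 were called lower and none was called on both sides, with a median log2 fold change of -0.28 over HE and -1.16 over FL HSCs. Called lower was 7 without HE replicate 2 and 8 without FL HSC replicate 2. Fbl, the methyltransferase fibrillarin of the nucleolus, was at 111, 129.6 and 138 FPKM in pre-HSCs, against 263 and 220.3 FPKM in HE and 443 and 337 FPKM in FL HSCs. Of 27 DNA replication genes 15 were set apart below and 2 were called, Mcm7 and Pold1. Mcm7, a helicase subunit, was at 79.5, 82.1 and 82.1 FPKM in pre-HSCs, against 129 and 121 FPKM in HE and 271 and 240.1 FPKM in FL HSCs. Its log2 fold change was -0.62 over HE (SE 0.13, adjusted p = 0.00694) and -1.64 over FL HSCs (SE 0.13, adjusted p = 4.88e-06). With FPKM scaled to equal totals 13 and 11 members of these lists stayed set apart below, 2 and 0 were called lower, and none was set apart above. Of the 24 mitosis genes, 4 were set apart below (16.7%, close to the 12.5% of all tested genes), 1 above, and none was called. In the amino acid list 7 of 18 were set apart below and 4 called lower. Asns, asparagine synthetase, was at 14, 17.4 and 18.9 FPKM in pre-HSCs, against 31.9 and 27.7 FPKM in HE and 81.8 and 64.9 FPKM in FL HSCs. Mthfd2, a mitochondrial folate enzyme called on both sides, was at 11.7, 12.5 and 9.72 FPKM in pre-HSCs, against 30.1 and 27 FPKM in HE and 30.4 and 31 FPKM in FL HSCs.

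**Figure D4:**
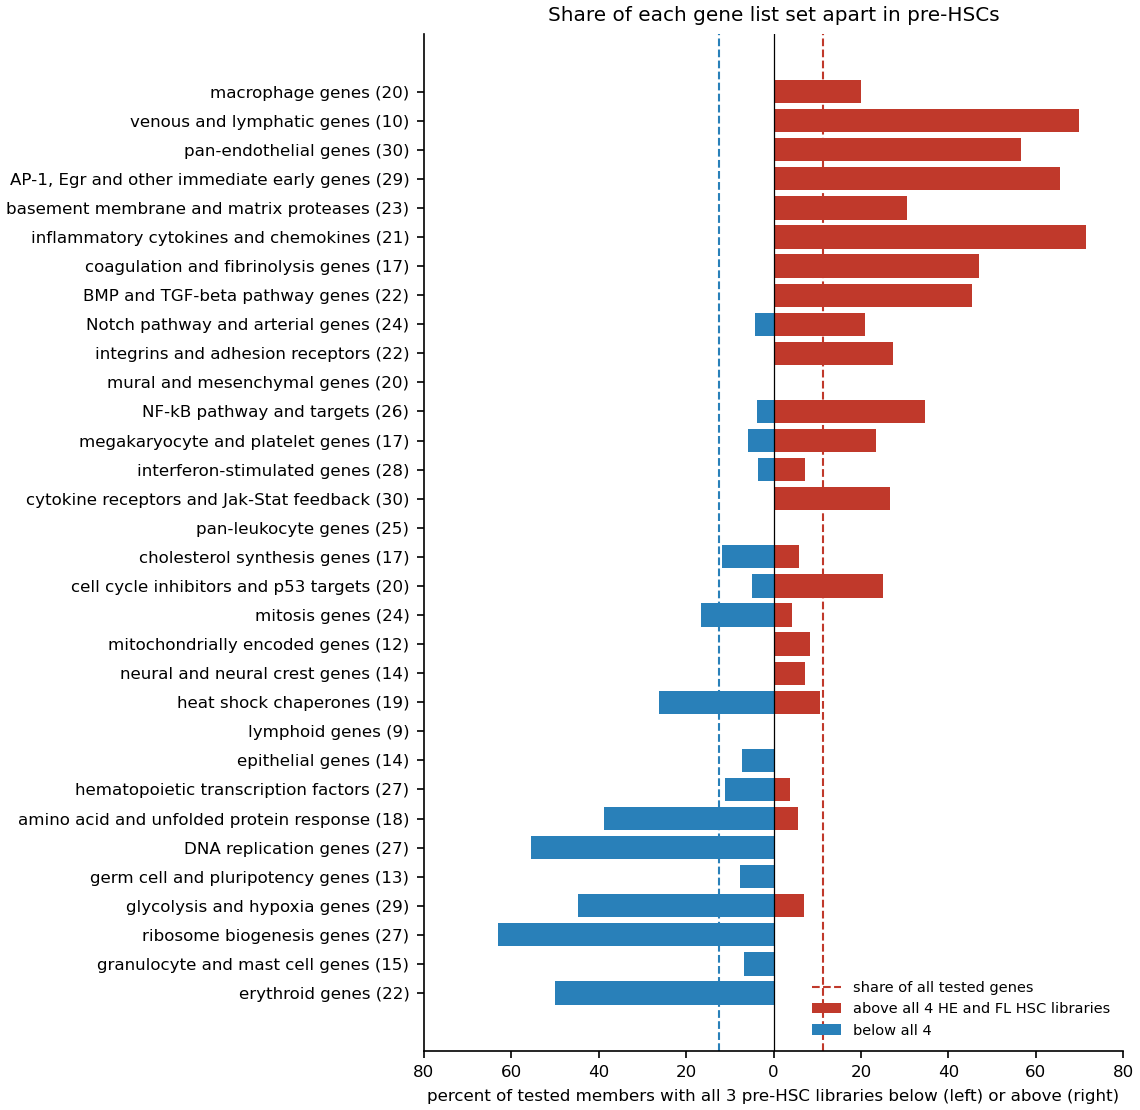
Bars give the percent of tested members (number in brackets) of each of 32 gene lists whose 3 pre-HSC libraries lay above (right, red) or below (left, blue) all 4 HE and FL HSC libraries. Dashed lines are the shares of all tested genes, 11.3% above and 12.5% below. In the values as deposited, cytokines and venous genes reach furthest to the right, ribosome biogenesis and DNA replication genes furthest to the left.

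Other genes of the lower set had roles in several pathways. Cited4, a coactivator partner of CBP and p300, was at 1.25, 0.959 and 1.64 FPKM in pre-HSCs, against 15.3 and 20.5 FPKM in HE and 84.5 and 53.8 FPKM in FL HSCs, with log2 fold changes of -3.05 over HE (SE 0.24, adjusted p = 8.58e-05) and -4.92 over FL HSCs (SE 0.24, adjusted p = 3.10e-07). Mt2, a metallothionein that binds zinc, was at 12.6, 6.44 and 20.9 FPKM in pre-HSCs, against 98 and 101 FPKM in HE and 215 and 136 FPKM in FL HSCs. Cxcr4, the receptor for the homing chemokine CXCL12, was at 7.62, 5.57 and 11.2 FPKM in pre-HSCs, against 16.1 and 19.9 FPKM in HE and 26.5 and 27.3 FPKM in FL HSCs. Pre-HSC replicate 3 was the highest of the 3 pre-HSC libraries for all of these. Slc38a6, an amino acid transporter-like gene, was at 34.8, 36.9 and 44.1 FPKM in pre-HSCs, against 119 and 121 FPKM in HE and 101 and 154 FPKM in FL HSCs. Sgip1, an endocytosis gene, was at 4.02, 3.88 and 4.31 FPKM in pre-HSCs, against 20.3 and 20.5 FPKM in HE and 10.4 and 22.4 FPKM in FL HSCs. Gcat, which breaks down threonine, was at 5.46, 4.58 and 5.58 FPKM in pre-HSCs, against 17.9 and 15.7 FPKM in HE and 22.4 and 15.2 FPKM in FL HSCs. For each of these 6 genes the highest pre-HSC library lay below the lowest HE or FL HSC library.

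Copies of ribosomal protein genes and other predicted genes had the 6 largest steps down, ranked by the smaller of their steps: Gm10260, Gm13394, Rps2-ps13, Rps26-ps1, Gm11361 and Rps2-ps10. Of the 83 lower genes 10 were annotated as pseudogenes (12.0%), against 3.21% of all tested genes and 7 of the 307 higher ones (2.28%). Gm13394, a pseudogene (chr2:28788950-28790200, mm9), was at 0.906, 0.971 and 0.816 FPKM in pre-HSCs, against 145 and 111 FPKM in HE and 183 and 138 FPKM in FL HSCs. Rps26-ps1 was at 4.95, 3.95 and 4.55 FPKM in pre-HSCs, against 295 and 208 FPKM in HE and 357 and 179 FPKM in FL HSCs, while its parent Rps26 was at 2920, 2881 and 3182 FPKM in pre-HSCs, against 3845 and 2896 FPKM in HE and 4672 and 3226 FPKM in FL HSCs. Gm10260 was at 8.33, 2.14 and 1.68 FPKM in pre-HSCs, against 410.3 and 251 FPKM in HE and 612 and 202 FPKM in FL HSCs. Gm13699, Gm8841 and Gm7666 were also named by rule, and the call of Gm8841 was lost without either Endo library or any pre-HSC library. Reads of such copies can fall on their near-identical parents, so these levels are uncertain, and the cross and the stage of the libraries cannot be told apart in them.

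Other lists had few members called on both sides. Pan-leukocyte genes lay above HE and below FL HSCs, with medians of 2.67 and -1.79, and 0 of 25 were set apart. Mural genes had medians of -1.56 over HE and 2.40 over FL HSCs and 0 of 20 set apart. Basement membrane genes were close to HE (median 0.12) and far above FL HSCs (3.87). None of 23 was called on both sides, although 19 were called higher against the mean of both neighbors (against 8.13% of all tested genes). Granulocyte genes were called lower in 8 of 15 (against 2.77% of all tested genes), none on both sides, with medians of 0.28 over HE and -3.03 over FL HSCs. Interferon-stimulated genes were set apart above in 2 of 28 (7.14%, against 11.3% of all tested genes) and below in 1 (3.57%, against 12.5%). In 17 of the 28, called or not, pre-HSC replicate 3 was at least 2-fold above replicate 2, against 4.13% of all tested genes. Rsad2, the member called on both sides, was not among the 17. Epithelial, germ cell, lymphoid, neural, cholesterol and mitochondrially encoded lists had at most 2 members set apart in a direction. Stmn2 was the neural list's member called on both sides, at 64.8, 67.7 and 75.5 FPKM in pre-HSCs, against 21.6 and 18.7 FPKM in HE and 0 and 0 FPKM in FL HSCs. In the megakaryocyte list 4 of 17 were set apart above (23.5%, against 11.3% of all tested genes). Among them was Ppbp, a platelet chemokine, at 12.8, 17.9 and 13.7 FPKM in pre-HSCs, against 4.92 and 5.66 FPKM in HE and 1.14 and 1.6 FPKM in FL HSCs.

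The Endo and BM HSC libraries, which the rule did not use, were then read for the same genes. Pre-HSCs also lay above all 4 of those libraries in 996 of the 1657 genes set apart above (60.1%), against 10.8% of all tested genes, and in 277 of the 307 called higher on both sides (90.2%). The share was similar for uneven (76 of 85) and even genes (156 of 172). Pre-HSCs lay below all 4 in 766 of 1836 genes set apart below (41.7%), against 7.3% of all, and in 54 of 83 (65.1%). Without pre-HSC replicate 3 the count of 766 was 1150, out of 2390 genes then set apart below. These shares rest on the same pre-HSC libraries as the rule, so they are not independent of it. The mean was highest in pre-HSCs for 292 of the 307 genes and highest in BM HSCs for the other 15. Rgs1, a brake on chemokine receptor signals, was at 11.7, 4.33 and 20.7 FPKM in pre-HSCs, against 92.0 and 52.2 FPKM in BM HSCs. The mean was lowest in pre-HSCs for 67 of the 83 lower genes. Mt2, an exception, was at 3.58 and 7.91 FPKM in BM HSCs.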

How the data were processed

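RNA-seq of 11 libraries of sorted mouse cells was used: 3 of pre-HSCs and 2 each of HE, FL HSCs, Endo and BM HSCs. The authors deposited 1 gene table of FPKM values for 37820 Ensembl gene IDs. By the methods, poly(A)-selected paired-end reads were aligned to mm9 with TopHat, uniquely mapped reads with few mismatches were kept, and Ensembl release 66 genes were used. Cufflinks, Subread, featureCounts and edgeR also stand in the submitters' processing notes, without versions. The tool behind the FPKM was not given in the sources used here. Reads of near-identical copies are dropped or divided by such a pipeline, which can shift their levels. The deposited values hold no read counts, so depth is unknown and no counting interval is given.

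Genes at 1 FPKM or more in at least 2 of the 11 libraries were tested (14708). A gene could pass this filter through its pre-HSC libraries alone. Values were fitted as log2(FPKM + 1) with limma 3.58.1 (R 4.3.3), with a trended variance, over all 5 populations, and p-values were Benjamini-Hochberg adjusted over all tested genes. Pre-HSC was contrasted with the mean of HE and FL HSC and with each. A call needed a change of at least 2-fold with an adjusted p under 0.05 in the contrast, after an F test across populations with an adjusted p under 0.01. The fit was tested on simulated data. Counting and drawing used matplotlib 3.10.9, numpy 2.4.6 and pandas 2.3.3 under Python 3.11.15.

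The members and the 32 gene lists were chosen with earlier results of these data known. Genes were named by rule: per direction the 15 with the largest smaller step among those set apart, called on both sides and at a mean of 10 FPKM or more in the higher populations, up to 4 set-apart members per list by contrast size, sort markers, and Hif1a, Socs3, Neurl3, Sp3 and Maz. Other genes named were chosen after their values were seen. Coordinates of genes are mm9 from GENCODE M1, which held 37038 of the IDs, and promoters are from RefSeq (GRCm38.p6).

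Alternatives were another pseudocount (0.1 or 0.5), no or a stricter filter, FPKM scaled to equal totals, quantile normalization, only the 7 compared libraries, a replicate block, no test over populations, a stricter adjusted p, and leaving out each library. Pairing by the replicate numbers of the labels was looked for among pre-HSC, HE and FL HSC libraries. Same-numbered libraries of these had correlations of their deviations from the group means between -0.106 and 0.144. HE and FL HSCs have 2 libraries each, so replicates 1 and 2 of that pair give the same value by construction. No limit was set for these correlations, so they do not decide whether libraries were paired. Pairing with Endo or BM HSC libraries was not checked. A result that names an item withheld for evaluation is not reported here.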

Additional observations from a re-analysis of the deposited data

How the results depend on the processing

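With FPKM scaled to equal totals, 269 genes were called lower and 53 lower on both sides, 1091 were set apart below, and 316 of these also lay below Endo and BM HSCs. With quantile normalization 129 were lower on both sides. With only the 7 libraries and HE and FL HSCs pooled as 1 group, 74 genes were called higher and 48 lower, since that spread includes the difference between HE and FL HSCs by construction. With 1 library left out at a time, 1646 to 2368 genes were set apart above and 1831 to 2390 below, 1069 to 1274 were called higher and 357 to 480 lower, and 181 to 382 were called higher and 49 to 103 lower on both sides. The lowest counts on both sides came without HE replicate 1. Above Endo and BM HSCs too were 1048 to 1290, and below them 786 to 1150. Where a library left a population with 1 sample, that sample was assumed to vary like the others. The replicate block gave 1141 genes called higher and 436 lower, with 278 and 82 on both sides, of which 249 and 66 were among those without the block. It moved no count of genes by over 1.5 times, though 6 instead of 10 NF-kB genes were called higher, and Slc2a3 and Gm8841 lost their calls. Of 106 named genes called, 92 kept the call in every setting other than HE and FL HSCs pooled. Cd48 changed sign with a pseudocount of 0.1, to 1.22 (log2). Genes at 0 in a population, few libraries and unknown depth limit these values, and the spread between libraries is the error they carry.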
